A study of Mus musculus with 60 samples.

Results

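The endothelial genes and adhesion molecules followed here are Cdh5, Pecam1, Cldn5, Kdr, Tek, Vwf, Sele, Selp, Vcam1 and Icam1. They were chosen by symbol: every probe annotated to 1 of these 10 genes was taken, which gave 18 of 45281 probes and 10 of 19057 genes with a probe of a single symbol. The values come from Illumina mouse BeadChips hybridised with biotin-labelled total RNA, 12 arrays of injured carotid artery and 48 arrays of bone marrow-derived macrophages in experiments of 12 and 36 arrays. High-density lipoprotein (HDL), the plasma particle that carries cholesterol away from tissues, was given in all 3 experiments, and Atf3, the gene of a stress-induced transcription factor, was labelled as deficient in part of the samples.

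The artery samples formed 4 groups of 3 arrays. Mice labelled Atf3-deficient (KO) received HDL or PBS, and wild-type mice (WT) received HDL or PBS. The design text describes males of about 12 weeks, strain label C57BL/6, whose common carotid artery was stripped of its lining by an electrical injury. HDL at 20 mg/kg or PBS was injected into a vein 3 h after the injury, and the stimulation period is given as 12 h. Every group therefore carried the injury, and an uninjured artery was not analysed here. The first macrophage experiment held WT cells in 4 groups of 3 arrays: HDL with CpG, HDL, CpG and control. The second held KO and WT cells, each with HDL and P3C, HDL and CpG, P3C, CpG, HDL and control, 3 arrays a group. CpG is DNA that stimulates TLR9 and P3C is a lipopeptide that stimulates TLR2. Cells with both HDL and a ligand had 6 h of HDL (2 mg/ml) first and then 4 h of 100 nM CpG or 50 ng/ml P3C. All macrophages were grown with M-CSF for 6 d, and their stimulation period is given as 10 h. Whether the 3 arrays of a group stand for 3 animals or cultures is not stated, so the p-values below measure only the spread between these arrays, which may be technical.

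The inner lining of an artery is a single layer of endothelial cells. They are joined to each other by VE-cadherin and claudin-5, the products of Cdh5 and Cldn5, and by PECAM-1, the product of Pecam1. When the lining is activated, P-selectin and E-selectin catch passing leukocytes and let them roll, and ICAM-1 and VCAM-1 then hold them firmly through integrins. Macrophages can carry ICAM-1 and VCAM-1 as well, and their inflammatory receptors reach these genes through NF-kB, whereas ATF3 is known as a brake on inflammatory genes in macrophages.

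An artery array had 9266 to 15397 of its 45281 probes detected (detection p under 0.01), against 12209 to 15323 in the first and 11951 to 14785 in the second macrophage experiment. On the artery arrays the fewest were detected on WT HDL replicates 1 and 3, with 9266 and 11094, against at least 12503 on each of the other 10. The probe of the targeted gene Atf3 was detected on all 60 arrays, KO arrays included. In each condition of the second macrophage experiment it was higher on every KO array than on every WT array. In controls it was at 12.37 to 12.91 against 11.12 to 11.28 (log2 normalised signal). Its place relative to any deleted part is not given, so it does not check the genotype labels. Another check of the labels, through Erdr1, a gene detected on 0 of 18 KO arrays and 18 of 18 WT arrays of the second macrophage experiment, went against the label on 2 artery arrays. These were KO HDL replicate 3, where Erdr1 was detected at 10.33 (log2 normalised signal), and WT PBS replicate 3, where it was not above background. The female transcript Xist was detected on all 12 artery arrays although the design text names males, and on all 36 arrays of the second macrophage experiment but 0 of 12 of the first. The artery results below are therefore about libraries labelled KO or WT, and counts are also given without those 2 arrays.

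All signals below are log2 normalised signals of a probe, background-corrected and quantile-normalised within an experiment. Levels of different probes were not compared, nor were levels between experiments. A comparison was tested with limma over all probes detected on at least 3 arrays, and a probe passed when its p, adjusted by the Benjamini-Hochberg method, was under 0.05. The log2 fold changes (log2 FC) are given with their standard error. Of the 18 member probes, 15 were tested on the artery arrays. The other 3, a probe each of Kdr, Vwf and Vcam1, were detected on none of the 12 arrays.

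The junction genes were detected on most artery arrays. Cdh5 (ILMN_2771550), the adhesion protein of endothelial junctions, had 7.30, 8.61 and 8.27 in KO HDL arteries and 9.80, 7.88 and 8.57 in KO PBS arteries. It had 6.19, 8.30 and 6.18 in WT HDL arteries and 8.17, 7.98 and 9.22 in WT PBS arteries. WT HDL replicates 1 and 3 were the lowest of the 12 arrays, and replicate 2 lay within the range of the WT PBS arrays. The HDL difference was -0.69 ± 0.65 log2 FC in KO arteries (adjusted p = 1) and -1.56 ± 0.65 in WT arteries (adjusted p = 0.199). The other Cdh5 probe, ILMN_2866951, had differences of -0.68 and -1.74 and did not pass either (adjusted p = 1 and 0.2).

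Cldn5, which seals tight junctions, had the widest span. Its signal was 6.56, 8.53 and 9.05 in KO HDL arteries and 9.99, 7.40 and 8.39 in KO PBS arteries. In WT HDL arteries it was 4.28, 8.52 and 4.22, with replicates 1 and 3 not above background, against 8.82, 7.83 and 9.40 in WT PBS arteries. The WT HDL difference of -3.01 ± 1.10 log2 FC did not pass (adjusted p = 0.191), and that of KO arteries was -0.55 ± 1.10 (adjusted p = 1). Pecam1 (ILMN_2700982), an adhesion protein of endothelium, platelets and leukocytes, had 8.10, 10.06 and 10.01 in KO HDL arteries and 10.31, 7.95 and 8.90 in KO PBS arteries. Its values were 7.58, 9.30 and 6.35 in WT HDL arteries and 10.17, 9.05 and 9.79 in WT PBS arteries. The KO groups overlapped over their whole range, and WT HDL replicate 2 lay inside the WT PBS range. The difference was 0.34 ± 0.80 log2 FC in KO arteries and -1.92 ± 0.80 in WT arteries, and neither passed (adjusted p = 1 and 0.2). The Pecam1 probe ILMN_3147074 had 6.84, 8.69 and 8.68 in KO HDL arteries, 9.40, 6.56 and 7.87 in KO PBS arteries, 6.12, 8.16 and 6.01 in WT HDL arteries and 8.73, 7.64 and 8.45 in WT PBS arteries. The dimmest, ILMN_1226690, lay between 4.27 and 6.16 and was detected on 8 of the 12 arrays, and on it WT HDL replicate 1 lay above the lowest KO arrays. Their WT HDL differences of -1.51 and -0.58 did not pass (adjusted p = 0.253 and 0.446).

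The receptor genes gave a high and a low example. Tek, the receptor of angiopoietins, had 6.71, 8.79 and 8.80 in KO HDL arteries and 9.54, 6.53 and 7.74 in KO PBS arteries. It had 4.49, 8.07 and 4.33 in WT HDL arteries, with replicates 1 and 3 not above background, and 8.73, 7.58 and 8.88 in WT PBS arteries. The same 2 arrays were the low ones as for Cldn5. The differences were 0.16 ± 1.02 log2 FC in KO arteries and -2.76 ± 1.02 in WT arteries (adjusted p = 1 and 0.191). Kdr (ILMN_2665788), the main VEGF receptor of endothelium, lay between 4.49 and 5.80 and was detected on 4 of the 12 arrays, so little can be read from it at this signal.

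The genes of the Weibel-Palade bodies, the endothelial granules that hold von Willebrand factor and P-selectin, differed in how they varied. Vwf (ILMN_2519673) was detected on all 12 arrays, at 9.89, 9.76 and 9.97 in KO HDL arteries and 10.60, 8.89 and 9.47 in KO PBS arteries. It was at 10.75, 9.46 and 8.95 in WT HDL arteries and 10.88, 9.17 and 10.13 in WT PBS arteries. WT HDL replicate 1, among the lowest arrays for Cdh5, Cldn5 and Tek, was the second highest for Vwf. The summed signal of the 5 platelet markers with a probe was also highest on that array, at 19521, against 2033 to 12727 on the other 11, and platelets carry von Willebrand factor too; its part in the result was not tested. The Vwf differences were 0.23 ± 0.55 log2 FC in KO arteries and -0.34 ± 0.55 in WT arteries (adjusted p = 1 and 0.699). With median scaling the WT difference was -1.65 and passed (adjusted p = 0.0498), beside a median of -0.96 over all tested probes.

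Of the selectins, Selp, which encodes P-selectin of endothelium and platelets, had 6.89, 8.86 and 7.81 in KO HDL arteries and 8.81, 6.88 and 8.08 in KO PBS arteries. In WT HDL arteries it had 7.28, 8.34 and 4.94, the last not above background, and in WT PBS arteries 9.47, 7.75 and 7.88. Sele, which encodes the E-selectin of activated endothelium, was dim, at 5.53, 5.12 and 5.02 in KO HDL arteries and 6.09, 5.41 and 5.52 in KO PBS arteries. It was at 4.42, 5.70 and 4.54 in WT HDL arteries, with replicates 1 and 3 not above background, and at 6.15, 5.45 and 6.01 in WT PBS arteries. In both genotypes the HDL and PBS arrays overlapped for both selectins. The WT HDL differences were -1.51 ± 0.85 log2 FC for Selp and -0.98 ± 0.36 for Sele (adjusted p = 0.281 and 0.191), and those of KO arteries were -0.07 and -0.45 (adjusted p = 1 each).

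**Figure D1:**
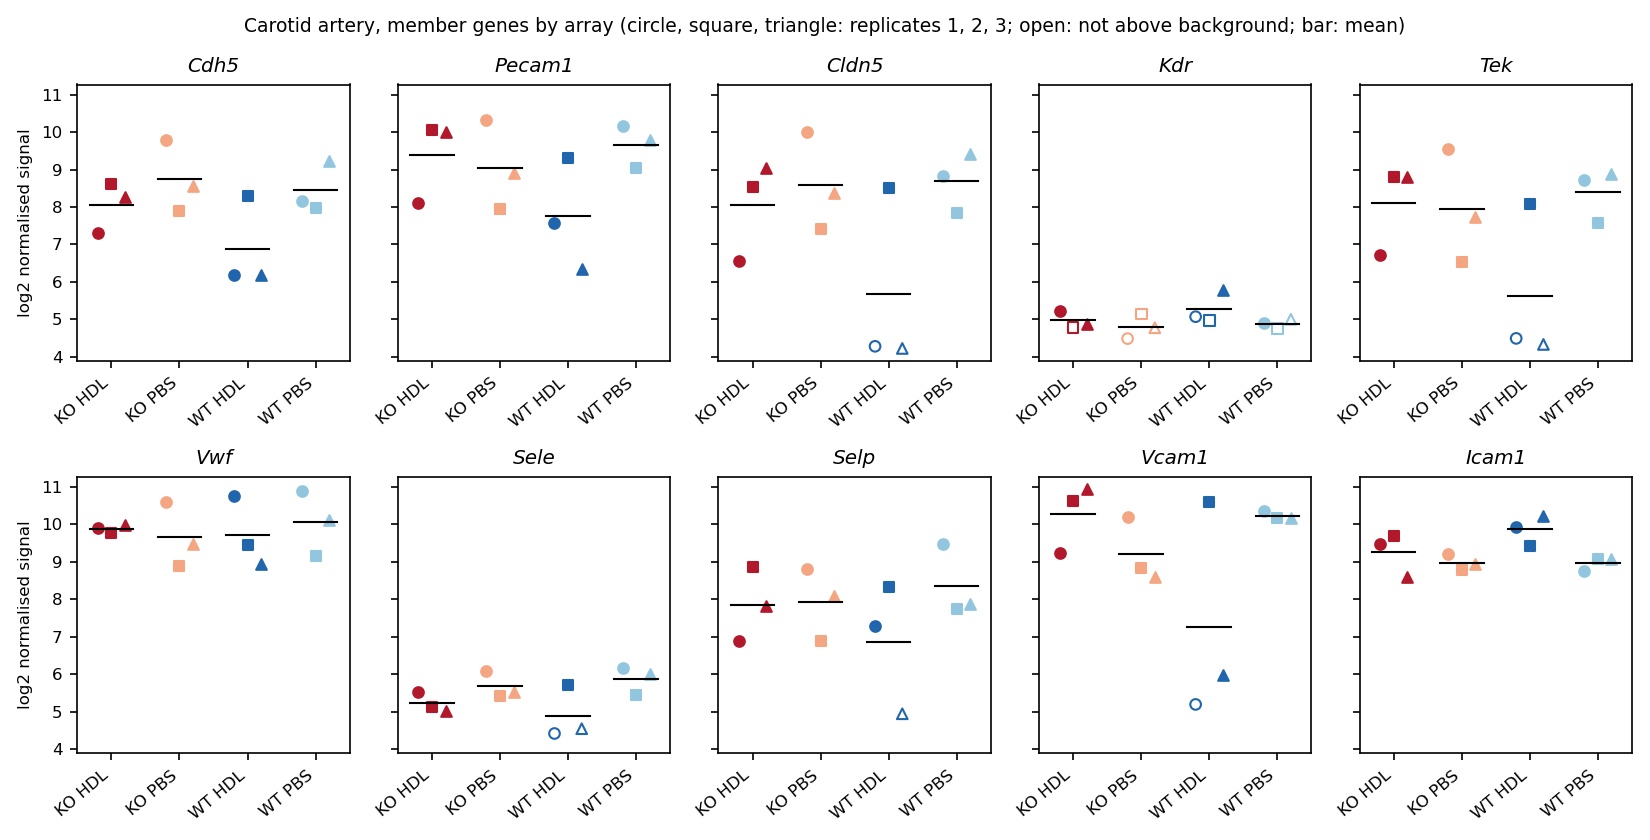
Log2 normalised signal of the brightest probe of each member gene on the 12 artery arrays, by group (KO HDL, KO PBS, WT HDL, WT PBS), with replicates 1, 2 and 3 as circle, square and triangle, open symbols where the probe was not above background and a bar at the group mean. For Cldn5, Tek and Vcam1 replicates 1 and 3 of WT HDL lie well below replicate 2, while for Icam1 all 3 WT HDL arrays lie above the 3 WT PBS arrays on this quantile-normalised scale (a difference of 0.89, against -0.46 with median scaling).

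Vcam1 and Icam1, the ligands of leukocyte integrins, had differences of opposite sign on the WT arrays, although the sign of Icam1 turned with median scaling. Vcam1 (ILMN_2778655) had 9.23, 10.63 and 10.94 in KO HDL arteries and 10.20, 8.84 and 8.60 in KO PBS arteries. It had 5.19, 10.60 and 5.98 in WT HDL arteries, the first not above background, and 10.36, 10.16 and 10.18 in WT PBS arteries. Replicates 1 and 3 of WT HDL lay below all other arrays and replicate 2 above all WT PBS arrays. The difference was 1.05 ± 1.10 log2 FC in KO arteries (95% interval -1.37 to 3.46, adjusted p = 1) and -2.98 ± 1.10 in WT arteries (-5.39 to -0.56, adjusted p = 0.191). The KO difference minus the WT difference was 4.03 ± 1.56 (unadjusted p = 0.0248, adjusted p = 0.753). The dimmer Vcam1 probes ILMN_2552295 and ILMN_1232768 had WT HDL differences of -1.02 and -0.63 and did not pass.

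Icam1 (ILMN_2896601) had 9.48, 9.69 and 8.60 in KO HDL arteries and 9.20, 8.78 and 8.95 in KO PBS arteries. It had 9.93, 9.42 and 10.23 in WT HDL arteries and 8.77, 9.07 and 9.08 in WT PBS arteries. All 3 WT HDL arrays lay above the 3 WT PBS arrays, and the KO groups overlapped. The difference of 0.89 ± 0.31 log2 FC in WT arteries (95% interval 0.22 to 1.57) did not pass (adjusted p = 0.191), and that of KO arteries was 0.28 ± 0.31 (adjusted p = 1). With arrays scaled to a common median, not quantile-normalised, the WT difference was -0.46 (adjusted p = 0.298), beside an all-probe median of -0.96, so it lay above that median under both scalings and below 0 under one. The summed signal of the 5 monocyte and macrophage markers with a probe was 8161 to 17084 on the WT HDL arrays and 3555 to 8599 on the WT PBS arrays, 4938 to 9828 on the KO HDL arrays and 2251 to 10228 on the KO PBS arrays. Macrophages express Icam1, as the macrophage arrays below show, and the part of this list in the result was not tested. In whole artery RNA, fewer cells of a type and less RNA per cell cannot be told apart.

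The stretch before the Icam1 start is shown because Icam1 rose with ligand in both macrophage experiments below. It lies at chr9:21015690-21015939 on the plus strand (RefSeq, GRCm38.p6) and covers the 250 bases before the annotated start. Capitals mark the single match to the NF-kB motif, which ends 144 bases before the start.
Icam1: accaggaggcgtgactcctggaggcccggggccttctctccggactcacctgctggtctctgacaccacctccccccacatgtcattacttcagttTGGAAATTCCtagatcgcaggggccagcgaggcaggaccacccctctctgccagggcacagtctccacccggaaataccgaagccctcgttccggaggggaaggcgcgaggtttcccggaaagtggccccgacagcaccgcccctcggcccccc

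Promoters were read from 250 bases before to 50 after the start, and 6 of the 10 members had one in the reference table. Both strands were searched for the NF-kB motif, the AP-1 motif TGANTCA and the CRE motif TGACGTCA, to which ATF and CREB proteins bind. Sele and Selp each held 1 NF-kB and 1 AP-1 match, Kdr 3 NF-kB matches, 2 of them overlapping, and Cldn5 2 overlapping ones, and Tek none of the 3 motifs. None of the 6 held the CRE motif. Among all 32851 promoters of the table, 16.6% held an NF-kB match, 7.81% the AP-1 motif and 1.79% the CRE motif. A match describes these letters only.

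No member probe passed in the artery at an adjusted p under 0.05 in any of the 5 comparisons, and no probe of the 15868 tested did, so the background share was 0% in each. At an unadjusted p under 0.05, 8 of the 15 member probes differed between WT HDL and WT PBS arteries, against 22.5% of all probes. For KO HDL against KO PBS the count was 0 of 15 against 1.5% of all probes, and for KO PBS against WT PBS 0 of 15 against 0.649%. For KO HDL against WT HDL it was 3 of 15 against 7.92%, and for the difference of the HDL effects between genotypes 2 of 15 against 4.75%. The median difference of the 15 member probes between WT HDL and WT PBS was -1.51 log2 FC, with 13 of 15 below 0, and that of all probes was -0.09, with 55.3% below 0. Between KO HDL and KO PBS the member median was 0.16 and that of all probes 0.00. With median scaling the member median was -2.13 for WT HDL against WT PBS, beside -0.96 for all tested probes, and 0.56 for KO HDL against KO PBS, beside 0.35. In that fit 8 member probes passed between WT HDL and WT PBS, along with 6124 of all probes, and 0 in the other 4 comparisons.

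The counts differed with the arrays used. Without WT HDL replicate 2, 10 member probes passed between WT HDL and WT PBS, 5 between KO HDL and WT HDL and 3 in the difference of the HDL effects. The share of all probes that passed in these fits is not given here, so the counts are not read as particular to the members. Without WT HDL replicates 1 and 3, left out after they were seen to be low, 1 WT HDL array remains, its spread is taken from the other groups, and the values restate the level of replicate 2. There 0 member probes passed, and the WT HDL difference was 0.36 log2 FC for Vcam1, -0.16 for Cldn5, -0.32 for Tek, -0.16 for Cdh5 and 0.45 for Icam1. Without KO HDL replicate 3 and WT PBS replicate 3, chosen in the same way, 0 member probes passed in all 5 comparisons. With arrays weighted by quality, 3 Vcam1 probes passed between KO HDL and KO PBS (higher with HDL), along with 1089 of all probes. In that fit KO HDL replicate 2 and KO PBS replicate 3 carried weights of 9.11 and 5.91, against at most 2.27 for the other 10 arrays.

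**Figure D2:**
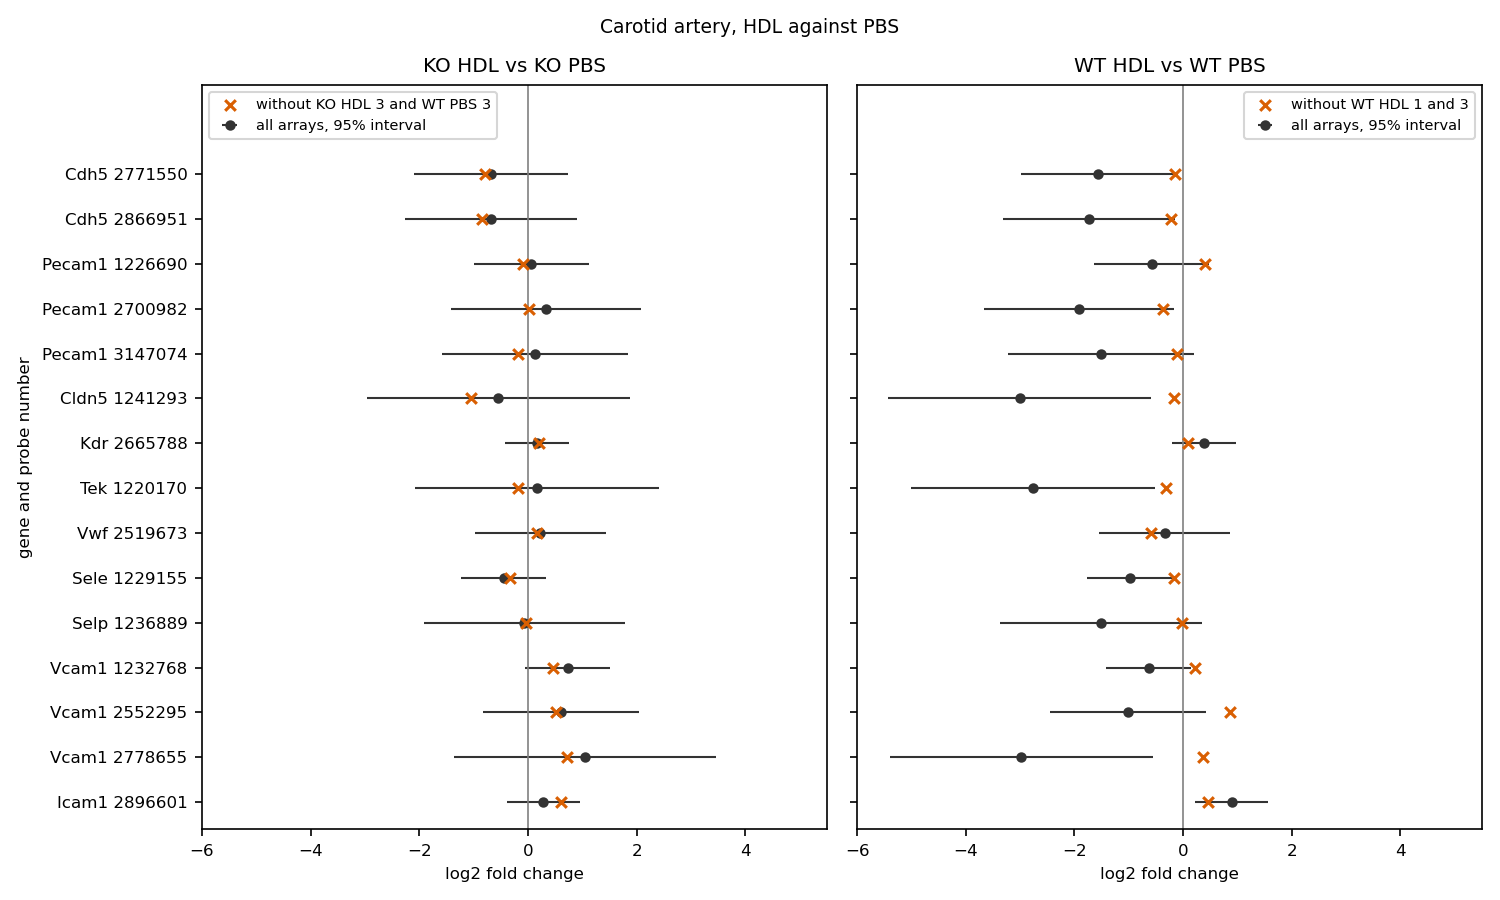
Log2 fold change of HDL over PBS for each tested member probe in KO arteries and in WT arteries, as points with 95% intervals, and as crosses without KO HDL replicate 3 and WT PBS replicate 3 (KO panel) or without WT HDL replicates 1 and 3 (WT panel). The WT crosses stand for the 1 WT HDL array left, replicate 2, at -0.16 for Cldn5, -0.32 for Tek and 0.36 for Vcam1, where the points with all 3 arrays lie at -3.01, -2.76 and -2.98.

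Within each of the 2 artery chips, the WT HDL difference had the same sign for the brightest probes, with 1 array of each group on the first chip and 2 on the second. It was -5.17 and -1.88 for Vcam1, -4.54 and -2.25 for Cldn5, -4.23 and -2.03 for Tek and -1.98 and -1.36 for Cdh5. For Icam1 it was 1.17 and 0.76. The first chip held WT HDL replicate 1 and the second replicates 2 and 3. Each chip thus held 1 of the 2 arrays low for Vcam1, Cldn5, Tek and Cdh5, and the shared sign for these genes rests on those arrays. On the second chip Vcam1 was at 10.60 and 5.98 on WT HDL replicates 2 and 3, beside 10.16 and 10.18 on the WT PBS arrays. In KO arteries Vcam1 gave 0.41 and 2.33, and Icam1 gave 0.59 and -0.34 with opposite signs.

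Marker lists of cell types were low on the same arrays, though not all on both. The 10-gene endothelium list, which shares 6 genes with the members, summed to 3040, 4542 and 895 on WT HDL replicates 1, 2 and 3, with 6, 8 and 5 markers detected. It summed to 2852 to 6570 in KO HDL, 2789 to 10893 in KO PBS and 3663 to 7770 in WT PBS arteries. The smooth muscle list summed to 6190, 36334 and 4434 on the WT HDL arrays, with 4, 7 and 3 of 8 markers detected. Its range was 22096 to 32575 in KO HDL, 18675 to 32394 in KO PBS and 21755 to 47603 in WT PBS arteries. The fibroblast list gave 1263, 6633 and 616 on the WT HDL arrays, beside 1692 to 13455 in KO HDL, 3456 to 8858 in KO PBS and 5400 to 10914 in WT PBS arteries. So on WT HDL replicates 1 and 3 the smooth muscle and fibroblast sums were the lowest of the 12 arrays. The endothelium sum was the lowest on replicate 3 and lay within the range of the KO groups on replicate 1. That sum includes Vwf, which was at 10.75 on replicate 1, where Cdh5, Cldn5 and Tek were at 6.19, 4.28 and 4.49. A sum without Vwf was not taken, so replicate 1 is not shown to have kept its other endothelial markers. The part of these sums, and of the lower number of detected probes, in the member results was not tested. Erythroid markers summed to between 56273 and 85323 on all 12 arrays.

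**Figure D3:**
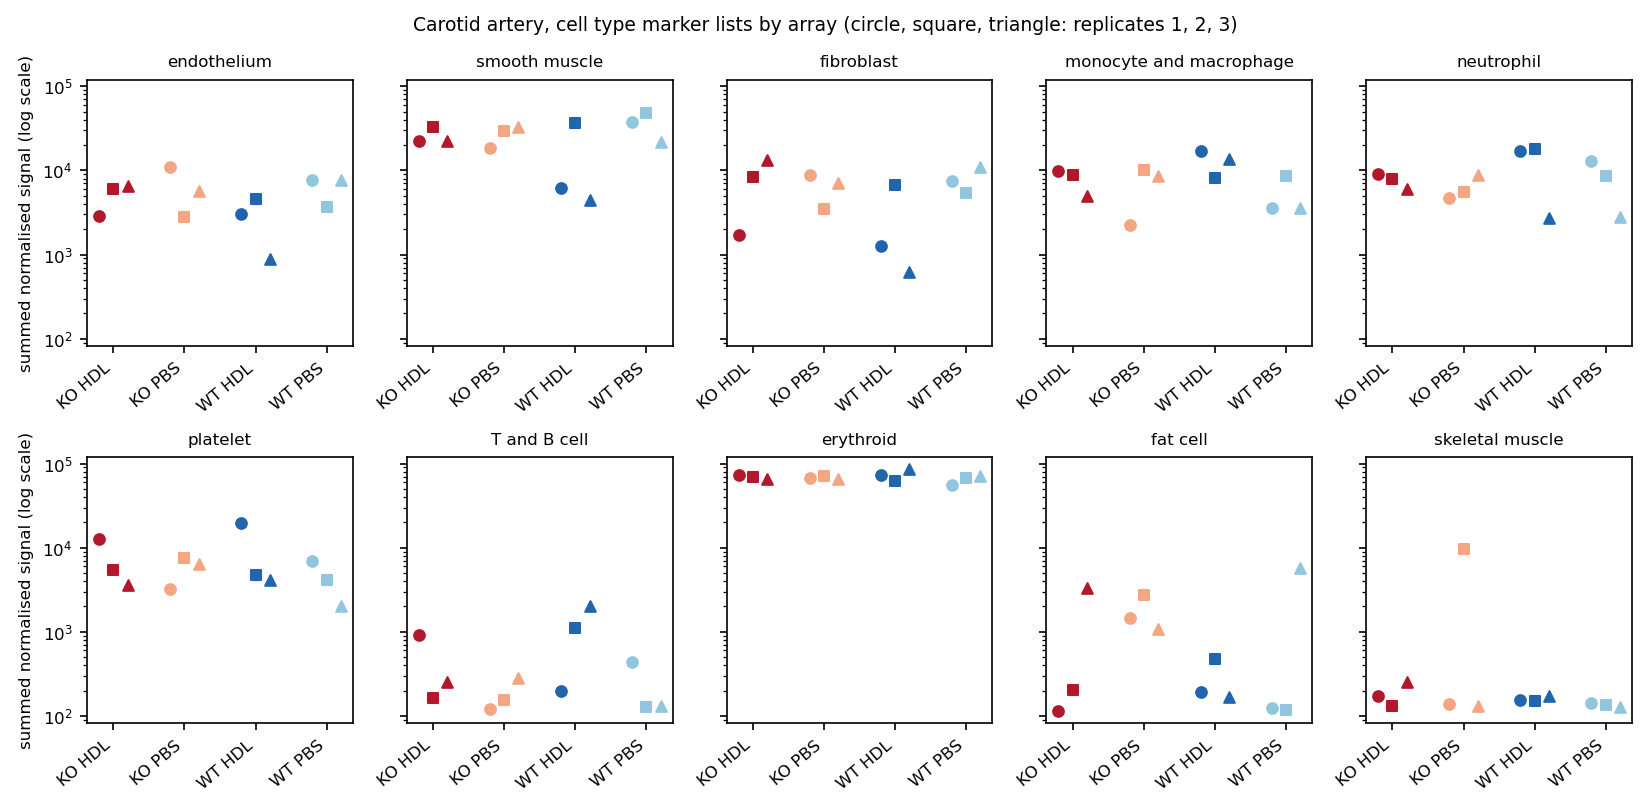
Summed normalised signal (log scale) of cell type marker lists on the 12 artery arrays, by group (KO HDL, KO PBS, WT HDL, WT PBS), with replicates 1, 2 and 3 as circle, square and triangle. Smooth muscle lies at 6190 and 4434 on WT HDL replicates 1 and 3 and at 18675 or above on every other array, and monocyte and macrophage markers are highest on those 2 arrays, at 17084 and 13564.

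Of 33 other endothelial genes, 28 were tested in the artery and none passed in any comparison. Between WT HDL and WT PBS their median was -1.55 log2 FC, with 27 of 28 below 0 and 14 at an unadjusted p under 0.05. Of all probes, 55.3% lay below 0 and 22.5% were under that threshold. The largest differences were Ramp2, a partner of the adrenomedullin receptor, at -2.97, Egfl7, an endothelial secreted factor, at -2.97, and Nos3, the endothelial nitric oxide synthase, at -2.90 (adjusted p = 0.191 each). Between KO HDL and KO PBS the median was -0.27, with 0 at an unadjusted p under 0.05, and the largest were Robo4 at -1.82, Emcn at -1.25 and Gpihbp1 at -1.03. With median scaling these medians were -2.29 and 0.16, beside -0.96 and 0.35 for all tested probes, so that of the KO arteries turned its sign. Of 20 other adhesion molecules and leukocyte ligands, 14 were tested and none passed. Between WT HDL and WT PBS their median was 0.81, with 10 at an unadjusted p under 0.05, beside 22.5% of all probes. The largest were Itga9 at -2.75 and the leukocyte integrin subunits Itgb2 at 1.77 and Itgam at 1.65. Between KO HDL and KO PBS the median was 0.31, with 0 at an unadjusted p under 0.05, and Alcam had 0.62, F11r -0.54 and Cd44 0.50. With median scaling the medians were -0.42 and 0.66, so that of the WT arteries turned its sign and lay above the median of all tested probes.

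By root mean square difference of centred log2 signals over the 12 artery arrays, the genes most like Cdh5 among 9361 were Eng, an endothelial co-receptor of the TGF-beta family, at 0.22, Tpbg at 0.24, Abhd14a and Dhh at 0.25 and 0.27, and Ndufa5 at 0.33. The median over all genes was 1.04. These values share the arrays and their depth, and are a description only.

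In the macrophage experiments 6 of the 18 member probes were tested. In the first these were 1 probe each of Icam1, Vwf and Pecam1 and 3 of Vcam1, in the second 1 each of Icam1 and Vwf and 2 each of Vcam1 and Pecam1. Cdh5, Cldn5, Kdr, Sele and Selp were detected on none of the 48 macrophage arrays, and Tek on 1. So the defining genes of endothelial junctions were at background in these cells.

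In WT macrophages of the first experiment Icam1 rose with CpG and fell with HDL. It had 11.97, 12.03 and 11.57 with HDL and CpG, 12.29, 12.10 and 12.22 with CpG, 8.00, 8.11 and 8.10 with HDL and 10.14, 9.22 and 9.70 in controls. The HDL, control and ligand arrays occupied 3 separate ranges, and the arrays with HDL and CpG lay below those with CpG. CpG raised Icam1 by 2.52 ± 0.22 log2 FC (adjusted p = 4.82e-06), and HDL lowered it, at -1.62 ± 0.22 (adjusted p = 0.000845). HDL with CpG against HDL alone was 3.79 ± 0.22 (adjusted p = 1.63e-07). HDL with CpG against CpG was -0.35 ± 0.22, which did not pass (adjusted p = 0.407).

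The response of Icam1 to CpG was thus measured at 3.79 after HDL and 2.52 without it, a difference of 1.27 ± 0.31 (95% interval 0.60 to 1.93) that did not pass (adjusted p = 0.118). It passed with the chip as a random block (adjusted p = 0.0479), with arrays weighted by quality (1.77, adjusted p = 0.000408) and without control replicate 2 (1.49, adjusted p = 0.0319). Within the chips that held both groups, CpG against control gave 2.52 and 2.51, HDL against control -1.60 and HDL with CpG against HDL 3.96 and 3.70.

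Vcam1 (ILMN_2778655) was already bright in unstimulated cells of the first experiment. It had 9.51, 10.04 and 9.76 with HDL and CpG, 10.28, 10.22 and 9.82 with CpG, 9.05, 9.60 and 9.56 with HDL and 10.15, 9.39 and 9.42 in controls. The groups overlapped, and the CpG difference of 0.45 ± 0.25 did not pass (adjusted p = 0.202), although it passed without control replicate 1 (0.70, adjusted p = 0.0495). The dimmer probe ILMN_2552295 rose with CpG by 0.93 ± 0.19 (adjusted p = 0.00349), so the 2 probes did not give the same call.

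Vwf, known mainly from endothelium and platelets, was measured above background in these macrophages and moved with HDL. It had 6.75, 6.19 and 6.04 with HDL and CpG, 5.29, 4.71 and 4.45 with CpG, 7.50, 6.90 and 7.16 with HDL and 5.56, 6.43 and 5.32 in controls, with CpG replicates 2 and 3 not above background. All HDL arrays lay above the control arrays, and all HDL with CpG arrays above the CpG arrays. HDL raised it by 1.42 ± 0.32 (adjusted p = 0.0211), HDL with CpG against CpG by 1.51 ± 0.32 (adjusted p = 0.0123), and CpG lowered it, at -0.95 ± 0.32 (adjusted p = 0.0415). The HDL call was lost without HDL replicate 1 or 3 or control replicate 1 or 3 (1.26, 1.43, 1.31 and 1.20, adjusted p = 0.0815, 0.0642, 0.0737 and 0.055). The call of HDL with CpG against CpG was lost without CpG replicate 2 (1.48, adjusted p = 0.0566). The CpG call was lost without CpG replicate 2 or 3 or control replicate 1 or 2 (-0.92, -0.77, -1.05 and -0.64, adjusted p = 0.109, 0.144, 0.0555 and 0.138). Pecam1 passed in no comparison of this experiment.

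Against the background, 3 of the 6 member probes passed for CpG against control, beside 28% of all probes, and 2 for HDL against control, beside 5.54%. For HDL with CpG against CpG 1 passed beside 6.99%, and for HDL with CpG against HDL 2 passed beside 26.8%. In the difference between the CpG responses with and without HDL 0 passed beside 0.616%. The Icam1 probe was the 1 member probe there with an unadjusted p under 0.05, a threshold at which the share of all probes is not given here.

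In the second experiment Icam1 rose with both ligands in both genotypes to about the same level. In KO macrophages it had 13.16, 12.73 and 13.13 with HDL and P3C, 13.40, 12.99 and 13.22 with HDL and CpG, 13.33, 13.25 and 13.30 with P3C, 13.87, 13.04 and 12.77 with CpG, 9.58, 9.82 and 9.58 with HDL and 10.47, 10.61 and 10.56 in controls. In WT macrophages it had 12.78, 12.84 and 12.69 with HDL and P3C, 13.17, 12.92 and 13.06 with HDL and CpG, 13.48, 13.46 and 13.07 with P3C, 12.61, 13.16 and 13.22 with CpG, 10.39, 9.99 and 10.11 with HDL and 10.56, 10.80 and 10.65 in controls. Every array with a ligand lay above every array without one, and in each genotype the HDL arrays lay below the controls. No chip held KO controls beside KO arrays with CpG, P3C or HDL alone. For every gene those KO differences therefore lie between chips, and chip and treatment cannot be fully told apart. KO and WT arrays with P3C alone, or with HDL alone, shared no chip either.

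CpG raised Icam1 by 2.68 ± 0.19 log2 FC in KO and 2.32 ± 0.19 in WT macrophages (adjusted p = 1.09e-12 and 2.56e-11), and P3C by 2.75 ± 0.19 and 2.66 ± 0.19 (adjusted p = 7.27e-13 and 1.35e-12). HDL lowered it in KO macrophages, at -0.88 ± 0.19 (adjusted p = 0.00108, and 0.121 with median scaling), and the difference of -0.51 ± 0.19 in WT macrophages did not pass (adjusted p = 0.0922). The difference between these HDL effects was -0.37 ± 0.27 (95% interval -0.93 to 0.18) and did not pass (adjusted p = 0.971). With P3C present, HDL gave -0.29 ± 0.19 in KO (adjusted p = 0.372) and -0.57 ± 0.19 in WT macrophages, which passed (adjusted p = 0.0454). The WT call was lost when any of WT HDL with P3C replicates 1, 2 and 3 or WT P3C replicates 1 and 2 was left out (-0.57, -0.60, -0.53, -0.49 and -0.51, adjusted p = 0.0952, 0.0793, 0.133, 0.169 and 0.15). With CpG present, HDL gave -0.02 in KO and 0.05 in WT macrophages. No KO against WT difference of Icam1 passed, and the widest was -0.50 ± 0.19 with HDL (95% interval -0.90 to -0.11, adjusted p = 0.126).

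**Figure D4:**
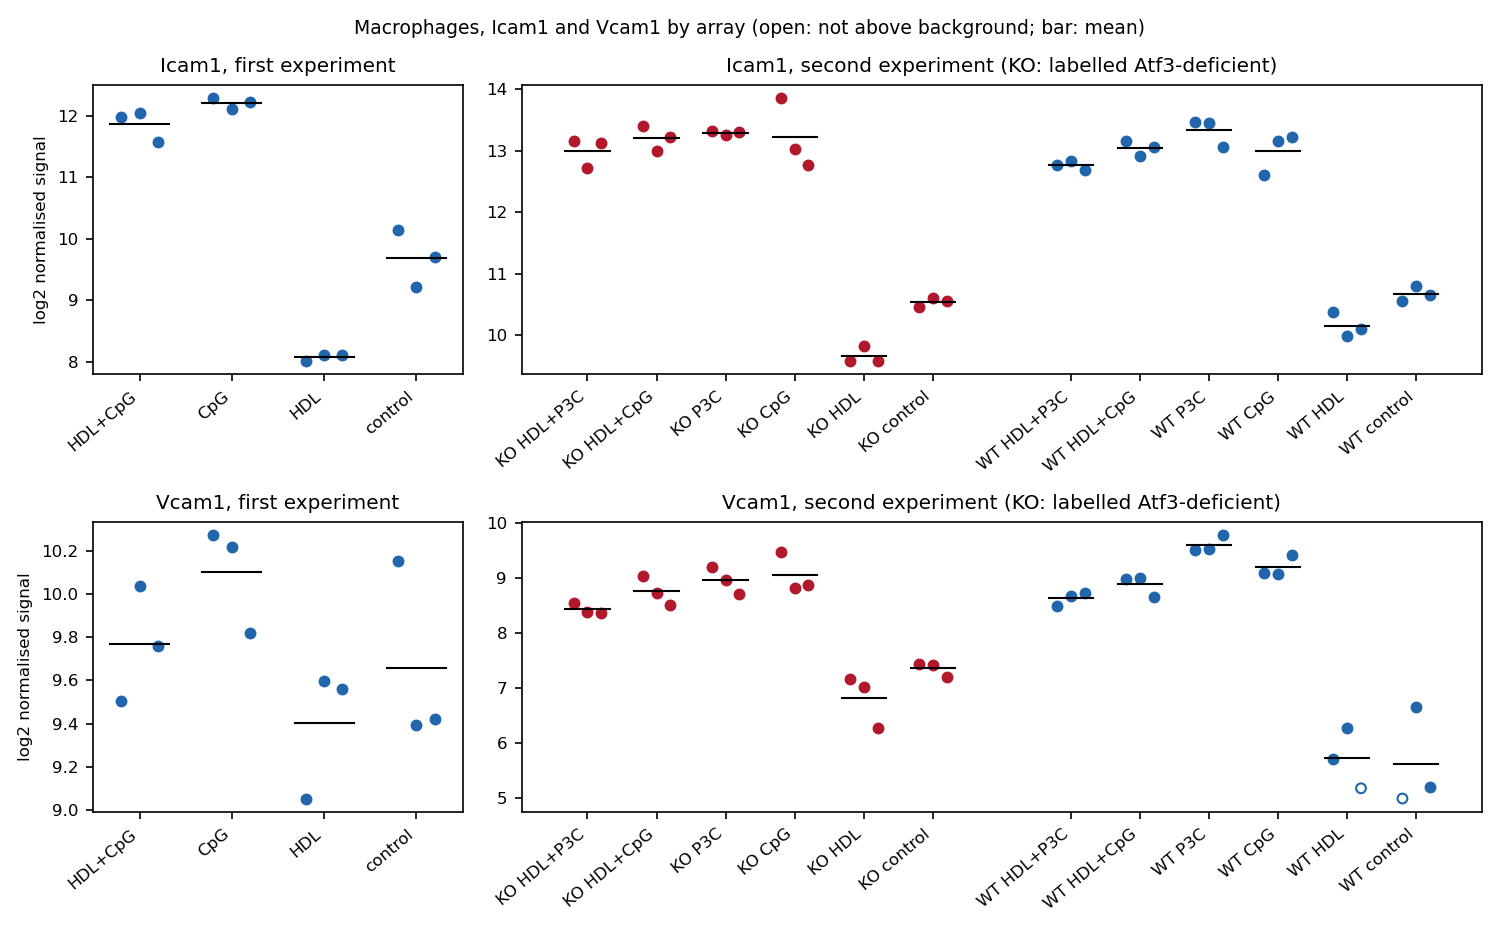
Log2 normalised signal of Icam1 and Vcam1 (brightest probes) on each macrophage array, with the first experiment on the left and the second on the right, KO groups left of WT groups; open symbols mark values not above background and bars the group means. In the second experiment Icam1 lies between 12.61 and 13.87 on every array with a ligand and between 9.58 and 10.80 on every array without one, and Vcam1 lies at 7.20 to 7.44 on KO controls and at 4.99 to 6.65 on WT controls.

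Vcam1 differed between the genotypes in cells without a ligand. In KO macrophages ILMN_2778655 had 8.55, 8.37 and 8.37 with HDL and P3C, 9.03, 8.73 and 8.51 with HDL and CpG, 9.21, 8.96 and 8.72 with P3C, 9.47, 8.81 and 8.87 with CpG, 7.16, 7.02 and 6.27 with HDL and 7.44, 7.42 and 7.20 in controls. In WT macrophages it had 8.49, 8.68 and 8.73 with HDL and P3C, 8.98, 9.00 and 8.66 with HDL and CpG, 9.50, 9.52 and 9.78 with P3C, 9.10, 9.08 and 9.42 with CpG, 5.71, 6.27 and 5.17 with HDL and 4.99, 6.65 and 5.20 in controls. WT HDL replicate 3 and WT control replicate 1 were not above background. The 3 KO control arrays lay above the 3 WT control arrays, and with P3C the 3 KO arrays lay below the 3 WT arrays. With CpG the genotypes overlapped.

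Vcam1 was higher in KO than in WT controls by 1.74 ± 0.29 log2 FC (adjusted p = 7.11e-05). With HDL alone it was higher in KO cells by 1.10 ± 0.29 (adjusted p = 0.0143). The HDL call was lost without KO HDL replicate 1 or 2 or WT HDL replicate 3 (0.93, 0.99 and 0.82, adjusted p = 0.102, 0.0662 and 0.142), and with the chip as a fixed effect (1.11, adjusted p = 0.0682). KO against WT controls gave 2.44 on the chip with 2 KO arrays and 1 WT array and 0.55 on the chip with 1 of each. With CpG or P3C the KO against WT difference was -0.15 ± 0.29 and -0.64 ± 0.29 and did not pass (adjusted p = 0.775 and 0.186). The P3C difference passed without background correction and in the deposited matrix (-0.56, adjusted p = 0.0205 each), and with only the groups compared (-0.64, adjusted p = 0.0452).

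Markers of stromal cells differed between the genotypes on the same arrays. The fibroblast list summed to 675 to 908 on KO controls and 223 to 258 on WT controls, with 2 and 1 to 2 of 6 markers detected, and Col3a1, Pdgfra, Lum and Dpt on none of the 36 arrays. Over all 18 arrays of a genotype it summed to 534 to 1056 in KO and 217 to 368 in WT cells. The smooth muscle list summed to 776 to 1081 on KO controls and 487 to 543 on WT controls, with Myh11, Tagln, Cnn1, Lmod1, Des and Myocd on none of the 36 arrays. Monocyte and macrophage markers were all detected on every array and summed to 58264 to 63119 on KO controls and 61854 to 65070 on WT controls. The part of these lists in the Vcam1 difference was not tested.

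The rise of Vcam1 with ligand was measured as smaller in KO cells, whose controls shared no chip with their arrays of CpG or P3C alone. CpG raised it by 1.70 ± 0.29 in KO and 3.59 ± 0.29 in WT macrophages (adjusted p = 1.73e-05 and 1.69e-11), and P3C by 1.61 ± 0.29 and 3.99 ± 0.29 (adjusted p = 4.21e-05 and 1.65e-12). The KO response minus the WT response was -1.89 ± 0.41 for CpG (95% interval -2.73 to -1.04, adjusted p = 0.00988) and -2.39 ± 0.41 for P3C (-3.23 to -1.54, adjusted p = 0.000875). These 2 contrasts were added after the values were seen. With the chip as a fixed effect neither passed (-1.58 and -1.92, adjusted p = 0.101 and 0.0615). HDL before P3C lowered Vcam1 in WT cells, at -0.97 ± 0.29 (adjusted p = 0.0215), a call lost without WT HDL with P3C replicate 1 or WT P3C replicate 3 (-0.90 and -0.88, adjusted p = 0.0779 and 0.0871). In KO cells the same comparison gave -0.53 ± 0.29 (adjusted p = 0.256), and the difference between genotypes was 0.44 ± 0.41 (adjusted p = 0.914).

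The second Vcam1 probe, ILMN_2552295, was above background on the 3 WT P3C arrays alone, and it was tested only because of them. That selection favoured a high WT P3C group, so comparisons with this group describe the signal and are no separate support. On those arrays the probe was at least 1.53-fold higher than in WT controls. With P3C it was at least 1.16-fold lower in KO than in WT cells. In WT cells with HDL and P3C it was at least 1.35-fold lower than with P3C alone.

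Vwf rose with HDL in every setting of the second experiment and fell with both ligands. In KO macrophages it had 7.48, 7.47 and 7.55 with HDL and P3C, 7.32, 7.57 and 7.79 with HDL and CpG, 6.73, 6.35 and 6.19 with P3C, 6.48, 6.46 and 5.73 with CpG, 8.52, 8.42 and 8.58 with HDL and 6.93, 7.22 and 6.81 in controls. In WT macrophages it had 8.03, 7.77 and 8.15 with HDL and P3C, 7.58, 7.89 and 8.10 with HDL and CpG, 6.67, 6.61 and 6.82 with P3C, 6.83, 6.95 and 6.80 with CpG, 9.00, 9.27 and 9.26 with HDL and 8.07, 8.09 and 7.88 in controls. Each HDL group lay wholly above the group without HDL that it was compared with, in both genotypes.

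HDL raised Vwf by 1.52 ± 0.17 log2 FC in KO and 1.16 ± 0.17 in WT macrophages (adjusted p = 7.51e-08 and 1.12e-05). Before CpG it raised it by 1.33 and 0.99, and before P3C by 1.08 and 1.29, each with a standard error of 0.17 (largest adjusted p = 8.08e-05). CpG lowered it, at -0.76 in KO and -1.15 in WT cells, and so did P3C, at -0.57 and -1.32 (largest adjusted p = 0.00812). The P3C call in KO cells was lost without KO P3C replicate 3 or KO control replicate 2 (-0.45 each, adjusted p = 0.0596 and 0.0623). None of the 3 differences of the HDL effect between genotypes passed (0.36, 0.34 and -0.21 without ligand, with CpG and with P3C, adjusted p = 0.941, 0.646 and 0.932). Vwf was lower in KO than in WT cells in controls (-1.03 ± 0.17, adjusted p = 6.82e-05), with CpG (-0.64, adjusted p = 0.0085) and with HDL (-0.67, adjusted p = 0.0109). The CpG call was lost without KO CpG replicate 3 (-0.39, adjusted p = 0.104), and the HDL call without WT HDL replicate 2 or 3 (-0.62 and -0.63, adjusted p = 0.0543 and 0.0553).

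Few other endothelial markers were detected beside Vwf. The endothelium list summed to 609 to 648 with HDL and 350 to 359 in controls of KO cells, and to 756 to 880 and 453 to 505 in WT cells, and Vwf is part of it. No more than 3 of its 10 markers were detected on any macrophage array, and Cdh5, Cldn5, Kdr, Emcn and Tie1 on none. The platelet list summed to 728 to 1197 with HDL and 885 to 1280 in controls of KO cells, and to 1197 to 1311 and 1102 to 1489 in WT cells, with Gp9 and Itga2b on none of the arrays.

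Pecam1 (ILMN_2700982) was detected on 11 of the 36 arrays. It was at least 1.56-fold higher with HDL in KO cells, where controls were not above background (adjusted p = 3.4e-05). In WT cells it rose by 0.82 ± 0.21 with HDL (adjusted p = 0.00708), a call lost without WT HDL replicate 2 (0.73, adjusted p = 0.0527). In KO cells HDL before CpG and before P3C passed as well (adjusted p = 0.0107 and 0.0242), but there it was above background on 1 array with HDL and on none without, so no fold is given. The dimmer ILMN_3147074 was at least 1.06-fold higher with HDL in KO cells (adjusted p = 0.00759), detected on 2 HDL arrays and on no control, and did not pass in WT cells (0.19 ± 0.21, adjusted p = 0.71).

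**Figure D5:**
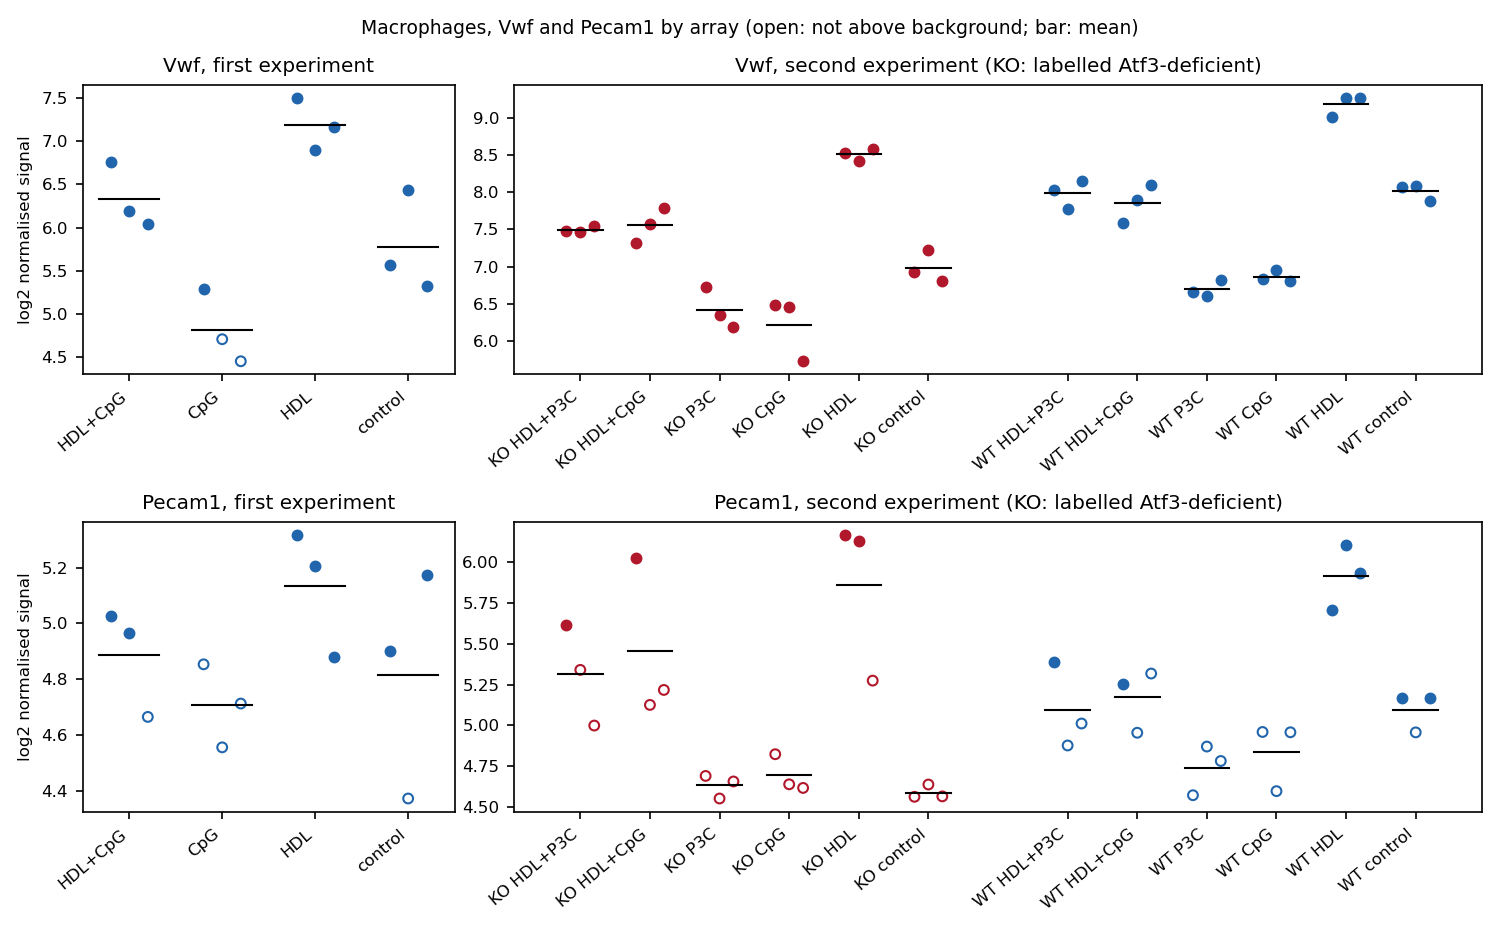
Log2 normalised signal of Vwf and Pecam1 (brightest probes) on each macrophage array, with the first experiment on the left and the second on the right, KO groups left of WT groups; open symbols mark values not above background and bars the group means. For Vwf every HDL group lies above its partner without HDL, from 8.42 to 8.58 against 6.81 to 7.22 in KO cells and from 9.00 to 9.27 against 7.88 to 8.09 in WT cells without ligand.

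The counts of the 6 member probes that passed were read against all 16487 probes tested. In KO macrophages 4 passed for CpG against control beside 46.4%, 5 for P3C beside 44%, 4 for HDL beside 18.8%, 2 for HDL with CpG against CpG beside 15.7% and 2 for HDL with P3C against P3C beside 14.7%. In WT macrophages 4 passed for CpG beside 45.7%, 4 for P3C beside 44.3%, 2 for HDL beside 11.7%, 2 for HDL with CpG beside 17.6% and 4 for HDL with P3C beside 14.9%. Between KO and WT cells 2 passed in controls beside 10.7%, 2 with CpG beside 19.2%, 1 with P3C beside 10.1%, 2 with HDL beside 8.18%, 0 with HDL and CpG beside 10% and 1 with HDL and P3C beside 12%. For the HDL effect in KO minus that in WT cells 0 passed without ligand, with CpG and with P3C, beside 0.873%, 0.249% and 0.23%. For the CpG and the P3C effect 1 and 2 passed beside 1.95% and 1.51%. With 6 probes each count rests on few values, and the ligand counts stand beside 44% to 46.4% of all probes. The counts hold ILMN_2552295 also where it was not above background in both groups, as for CpG in each genotype, and likewise the Pecam1 probe ILMN_3147074 for P3C in KO cells (adjusted p = 0.00944). They also hold ILMN_2552295 in comparisons with the WT P3C group, through which alone it was tested, among them the P3C effect between genotypes.

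Other genes of the lists also moved in macrophages. Of 14 other endothelial genes tested in the second experiment, 2 rose and 6 fell with CpG in KO cells, and 2 rose and 5 fell in WT cells. Of all probes, 46.4% and 45.7% passed there, so the counts are not read as particular to endothelial genes. The largest changes were falls of Klf2, a flow-responsive transcription factor of endothelium that macrophages also express, at -3.07 and -2.80, of Angpt2, a ligand of the Tek receptor, at least 3.50-fold in KO cells, where it was not above background with CpG, and at -2.48 in WT cells, and of Fli1 at -1.49 and -1.62. With P3C, 2 rose and 5 fell in KO cells, and 2 rose and 6 fell in WT cells, beside 44% and 44.3% of all probes. Klf2 was at least 9.39-fold lower with P3C in KO cells and fell by 3.02 on the log2 scale in WT cells. Of 14 other adhesion molecules, 7 rose and 3 fell with CpG in KO cells, and 6 rose and 3 fell in WT cells. The shares of all probes there were again 46.4% and 45.7%. The largest were Itgal, the integrin chain that binds ICAM-1, at 2.36 in KO cells and 1.27 in WT cells, Cd44, a hyaluronan receptor, at 1.27 and 1.38, F11r at 1.35 in KO cells and Itga9 at 1.50 in WT cells.

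HDL alone raised 2 and lowered 1 of the other adhesion molecules in KO macrophages, and raised 2 and lowered 2 in WT macrophages. Of all probes, 18.8% and 11.7% passed there. Alcam, an adhesion molecule of the immunoglobulin family, rose by 1.06 in KO and 1.04 in WT cells, and Itga9 fell, at -0.90 and -0.89. Of the other endothelial genes Klf2 fell with HDL, at -0.78 and -0.94, and Angpt2 rose by 0.57 and 0.63. Between KO and WT controls Notch4, Angpt2 and Flt1 of the endothelial list were lower in KO cells, at -1.08, -0.80 and -0.51, and of the adhesion list Itga9 was higher, at 1.25, and Itgb7 and Cd44 lower, at -1.23 and -0.58. In the first experiment 4 of 15 other endothelial genes fell and 2 rose with CpG, led by Klf2 at -2.65, Angpt2 at -2.17 and Notch4 at -1.79. Of 13 other adhesion molecules 3 rose and 1 fell, led by Itgal at 1.78, Alcam at 1.19 and Itgam at 0.91. Both counts stand beside 28% of all probes for CpG in that experiment. HDL raised Alcam there by 1.71, and lowered Notch4 and Klf2, at -1.21 and -1.17.

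Over the 36 arrays of the second experiment the genes most like Icam1 among 9224, by root mean square difference of centred log2 signals, were Zc3h12a at 0.24, Hivep3 at 0.28, Rtn2 at 0.36, Rel at 0.38 and Kctd12 at 0.39. Zc3h12a encodes the ribonuclease regnase-1 and Rel a subunit of NF-kB. The median over all genes was 1.46, and these arrays share the ligand groups, to which 44% or more of the probes responded, so the likeness is a description.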

How the data were processed

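The members, lists and comparisons were chosen with earlier results of these data known. Per the file headers, the deposited scanner tables hold a mean signal intensity and a detection p-value for each of 45281 probes and array, and the values are not normalised between arrays. The values of the deposited matrix are normalised intensity on the macrophage arrays and log2 signal on the artery arrays. The submitters' processing notes name Partek, without its steps. RNA extraction and scanner software are not given in the sources used here.

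Each experiment was processed alone with limma 3.58.1 in R 4.3.3: neqc (normexp from the detection p-values, offset 16, quantile normalisation, log2), probes detected (p under 0.01) on 3 or more arrays, a mean per group, eBayes and Benjamini-Hochberg adjustment over the 15868 artery, 15917 and 16487 macrophage probes tested (8, 8 and 24 residual degrees of freedom). The number of arrays limits the precision. A probe detected on no array of a group is called not above background there, and its fold is a lower bound, set against the higher of its own signal and the lowest detected signal on each array. The steps were tested on simulated data.

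Of all probes, 34885 had 1 symbol, 18 several and 10378 none, and 34807 were found by gene identifier in the RefSeq table. Named were all members, genes of 2 lists that passed (the 3 largest changes where over 3 or none passed), and the 5 genes most like Cdh5 and Icam1. Replicates were numbered in record order, which pairs nothing. Alternatives were no background correction, median scaling, the deposited matrix, the chip as a fixed or random effect, 1 probe per gene, dropping the detection filter, only the groups compared, array weights and leaving out each array. Added after the data were seen were 2 sets of artery arrays left out, the CpG and P3C contrasts between genotypes, and Vwf and Pecam1 in macrophages. Python 3.11.15 with matplotlib 3.10.9 made the figures.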

Additional observations from a re-analysis of the deposited data

Results flagged for a closer look

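The responses of Vcam1 to both ligands in the second macrophage experiment stood out because they differed between KO and WT macrophages in a test of the difference itself. That test was added after the values were seen, and KO controls shared no chip with KO arrays of CpG or P3C alone. For ILMN_2778655 the KO response minus the WT response was -1.89 log2 FC for CpG and -2.39 for P3C. KO controls lay above WT controls, at 7.20 to 7.44 against 4.99 to 6.65, and with P3C the 3 KO arrays lay below the 3 WT arrays (-0.64, adjusted p = 0.186). Leaving out any 1 array gave -2.40 to -1.57 for CpG (adjusted p from 0.000115 to 0.0459) and -2.90 to -2.07 for P3C (adjusted p from 3.71e-06 to 0.0061). With the chip as a fixed effect neither passed (-1.58 and -1.92, adjusted p = 0.101 and 0.0615). Nor did the CpG value with median scaling (-1.95, adjusted p = 0.204) or with only the groups compared (-1.89, adjusted p = 0.188). The dimmer ILMN_2552295 was above background in the WT P3C group alone and was tested only because of those arrays. Its P3C value of -0.82 is therefore no separate support. The fibroblast list summed to 675 to 908 on KO and 223 to 258 on WT controls, and its part in the Vcam1 difference was not tested. Of its 6 markers only 2 were detected on KO controls and 1 to 2 on WT controls.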

How the results depend on the processing

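No paired analysis was possible because replicates were numbered in record order, which pairs nothing. No value for a member reversed a call under any alternative. In the artery the count of member probes that passed, 0 in each comparison, was 8 with median scaling for WT HDL against WT PBS (where 6124 of 15868 probes passed) and 3 with array weights for KO HDL against KO PBS. Leaving out 1 array gave 0 to 10 for WT HDL against WT PBS, 0 to 5 for KO HDL against WT HDL and 0 to 3 for the difference of the HDL effects. These counts are given without the share of all probes in the same fits. The upper values all come without WT HDL replicate 2. The cause was not tested. Median scaling placed the median of all probes between -0.96 and 1.35 in the artery comparisons and between -0.31 and 0.18 in the macrophage ones, and quantile normalisation within 0.09 of 0.

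In the first macrophage experiment Icam1 passed for the CpG response with HDL minus that without, at 1.27 with the chip as a random block and 1.77 with array weights (1.05 to 1.49 leaving out 1 array). Vcam1 (ILMN_2778655 throughout) passed for HDL with CpG against HDL with array weights (0.51). With the chip as a fixed effect it was 0.16 for HDL and 0.077 for HDL with CpG against CpG. Its CpG response with HDL minus that without was 0.35 with array weights and -0.33 to 0.050 leaving out 1 array, and CpG against control was 0.32 to 0.70.

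In the second experiment median scaling left Icam1 at -0.82 for KO HDL and -0.42 for WT HDL with P3C against P3C, and Vcam1 at -0.92 for the same WT comparison and 0.95 for KO against WT with HDL, none of which passed. It gave Icam1 0.013 for KO HDL with CpG against CpG and -0.11 for KO against WT with HDL and P3C. With no detection filter, WT HDL with P3C against P3C did not pass for Vcam1 (-0.97) or Icam1 (-0.57). Nor did it with the chip as a fixed effect (-0.82 and -0.47), where KO against WT with HDL did not pass for Vcam1 either (1.11). In that fit KO against WT was 0.068 with CpG for Vcam1, 0.28 with P3C and -0.042 with HDL and CpG for Icam1, and the HDL effect with CpG, KO minus WT, was -0.36 for Vcam1. With the chip as a random block that last value was -0.053, and KO against WT with P3C was 0.036 for Icam1. Vcam1 passed for KO against WT with P3C without background correction (-0.56), in the deposited matrix (-0.56) and with only the groups compared (-0.64), where WT HDL passed for Icam1 (-0.51). With array weights Icam1 passed for WT HDL (-0.54) and for KO against WT with HDL (-0.47). The weights of that experiment stopped short of convergence. With them Icam1 was -0.14 for HDL with CpG against CpG in WT cells and 0.091 in KO cells, -0.083 for KO against WT with CpG and 0.23 for the HDL effect with CpG, KO minus WT.

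Leaving out 1 array gave, for Icam1, -0.25 to 0.31 for HDL with CpG against CpG in KO and -0.14 to 0.17 in WT cells, -0.10 to 0.46 for KO against WT with CpG and -0.17 to 0.032 with P3C. It gave -0.30 to 0.25 for the HDL effect with CpG, KO minus WT, and -0.70 to -0.49 for WT HDL with P3C against P3C. For Vcam1 it gave -0.11 to 0.23 for the HDL effect with CpG, KO minus WT, 0.82 to 1.38 for KO against WT with HDL and -0.26 to 0.00075 with HDL and CpG. It gave -0.20 to 0.62 for WT HDL and -1.02 to -0.88 for WT HDL with P3C against P3C.

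Over all member values and counts, those above included, 518 in the artery, 183 in the first and 855 in the second macrophage experiment kept their direction and their side of the threshold when 1 array was left out, 40, 15 and 38 changed count or turned their sign without a call, 18, 3 and 1 came to pass and 0, 15 and 27 no longer did. Under the other alternatives 765, 227 and 1004 kept both, 47, 10 and 25 changed count or sign, 11, 13 and 20 came to pass and 0, 10 and 43 no longer did. Counts over all probes moved further. In the second experiment median scaling gave 829 against 1758 for KO against WT controls, 1135 against 3095 for HDL in KO cells and 674 against 1929 in WT cells, and 22 against 321 and 40 against 249 for the CpG and P3C effects in KO minus WT. Only the groups compared gave 306 against 3163 for KO against WT with CpG, and array weights gave 7885 against 1113 for HDL with CpG against CpG in the first experiment.

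After group means were removed, the correlation of a probe's values within a chip, pooled over the tested probes, was -0.04 in the artery. It was 0.39 and 0.09 in the first and second macrophage experiments. Signal over background limits Kdr, Sele and the dimmer Vcam1 and Pecam1 probes, and 2 WT HDL artery arrays had the fewest detected probes. Erdr1, which is not the targeted gene, went against the genotype label on 2 artery arrays, and whether those labels are wrong was not tested. The spread between arrays may be technical.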
